A study of Mus musculus with 12 samples.

Results

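The collagen chains are the 44 genes whose symbol is Col, a number, the letter a and a number, out of 32285 genes counted, and they were followed in the fibroblasts of mouse ankle and wrist synovium. In experiment 1 the sorted cells were hashtagged by condition and shared 1 well: serum transfer arthritis with an Il23 minicircle (STA + Il23mc), serum transfer arthritis (STA) and healthy. In experiment 2 a second well held severe STA, mild STA and healthy cells. All mice were R5 x R26tdTomato, aged 8 to 10 weeks, with the alleles Il5 wt/Cre and R26 tdTom/tdTom, so the healthy mice carried them as well. The fibroblast gate was viable CD45- GR-1- cells, and each well pooled 4 animals, while how many animals stand behind a hashtag is not given. The replicate is therefore the hashtag (antibody barcode): 1 for STA + Il23mc, 3 for STA (STA 1, mild and severe) and 2 for healthy, and p-values measure the spread between these hashtags.

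Collagens are trimers wound from chains of the Gly-X-Y repeat. Fibrillar collagens such as types I, III and V form the tensile fibres of connective tissue, and type II, IX and XI chains build the fibrils of cartilage. Type IV chains form the sheet of basement membranes, type VIII a related hexagonal network, and type VI beaded microfilaments. FACIT collagens decorate the surface of fibrils, and the remaining members are anchoring fibril, transmembrane and endostatin-bearing types. In synovium fibroblasts are the main source of interstitial collagen, and the lining layer faces the joint space. By these roles 8 members are fibrillar, 7 cartilage, 8 network, 6 beaded filament, 6 FACIT and 9 other.

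Promoter sequence was matched for 35 of the 44 genes (RefSeq, GRCm38.p6, 300 bases, from 250 before to 50 after each start, in the gene's direction). The 4 shown are Col4a1 and Col4a2, which stand head to head, Col1a2, a chain of the most abundant collagen, and Col11a1, the called member with the largest change in arthritis. Capitals mark the letters CCAAT or their reverse complement ATTGG, the core of the box that the factor NF-Y binds. The windows are chr8:11312777-11313076 (minus strand) for Col4a1, chr8:11312555-11312854 (plus strand) for Col4a2, chr6:4505368-4505667 (plus strand) for Col1a2 and chr3:114030290-114030589 (plus strand) for Col11a1.
Col4a1: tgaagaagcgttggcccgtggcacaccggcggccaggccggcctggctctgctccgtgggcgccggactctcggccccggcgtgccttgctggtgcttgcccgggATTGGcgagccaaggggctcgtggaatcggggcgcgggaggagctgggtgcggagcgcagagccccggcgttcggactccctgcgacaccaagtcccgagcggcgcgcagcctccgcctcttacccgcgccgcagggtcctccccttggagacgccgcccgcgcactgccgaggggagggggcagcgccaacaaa
Col4a2: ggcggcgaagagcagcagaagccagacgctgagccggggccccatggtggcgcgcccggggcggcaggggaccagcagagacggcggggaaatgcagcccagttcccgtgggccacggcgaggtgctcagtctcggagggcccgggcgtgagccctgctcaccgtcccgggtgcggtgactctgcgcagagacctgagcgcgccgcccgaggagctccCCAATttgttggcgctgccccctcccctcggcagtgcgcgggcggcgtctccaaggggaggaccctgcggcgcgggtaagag
Col1a2: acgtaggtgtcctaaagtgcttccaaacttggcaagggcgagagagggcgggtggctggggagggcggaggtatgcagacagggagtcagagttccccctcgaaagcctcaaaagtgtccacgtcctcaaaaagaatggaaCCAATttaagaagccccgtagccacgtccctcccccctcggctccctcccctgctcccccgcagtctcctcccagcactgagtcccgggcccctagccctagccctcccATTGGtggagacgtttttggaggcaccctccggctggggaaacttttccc
Col11a1: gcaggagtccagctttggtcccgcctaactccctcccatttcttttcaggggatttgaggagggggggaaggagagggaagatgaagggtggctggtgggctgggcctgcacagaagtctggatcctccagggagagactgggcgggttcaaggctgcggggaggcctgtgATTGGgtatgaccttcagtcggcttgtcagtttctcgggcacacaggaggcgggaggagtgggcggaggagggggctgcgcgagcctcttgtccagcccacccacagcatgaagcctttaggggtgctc
CCAAT, on either strand, was in 34.2% of the 38 member windows and in 37.4% of all 32851 promoter windows. The GC box letters GGGCGG, on either strand, were in 60.5% of member windows and 35.7% of all windows, and TATAAA, on either strand, in 13.2% and 13.6%. ATTGG and GGGCGG can share their G bases, so a match of one may overlap a match of the other. A match is a description of the letters and not a binding site. In the annotation (GENCODE M21, mm10) Col4a1 spans 11198423 to 11312826 of chromosome 8 on the minus strand and Col4a2 spans 11312805 to 11449287 on the plus strand, so their starts lie 21 bases apart. The other close pairs were Col4a3 and Col4a4, with starts 72 bases apart on chromosome 1, Col4a5 and Col4a6, with starts 1309 bases apart on the X chromosome, and Col3a1 and Col5a2, which face each other tail to tail on chromosome 1 with 24614 bases between them.

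Levels are counts per 1000000 (CPM) of the UMIs of a hashtag's fibroblasts, summed over the 5 fibroblast classes of the authors' table (Mmp3+, Il6+, Pi16+, Lining and Cd200+). The protocol counts the 3-prime end of each transcript once, so these levels are not scaled by gene length. The sums held 17064647 UMIs in STA + Il23mc, 5885948 to 16592635 in STA and 3103104 and 3423349 in healthy hashtags. The make-up of the sums moved with the condition: Mmp3+ cells gave 78.8% of the UMIs in STA + Il23mc, 80.2% in STA 1, 68.2% in mild STA and 59.0% in severe STA, against 5.25% in healthy 1 and 14.4% in healthy 2. Lining cells gave 1.71% in STA + Il23mc and 5.12 to 6.27% in STA, against 20.3% in healthy 1 and 3.66% in healthy 2. Marker lists moved too: the 3 tendon markers, all called higher, summed to 155 to 212 CPM in STA against 64.1 and 66.3 CPM in healthy hashtags, and 4 of 7 chondrocyte markers were called higher (Acan by 2.58 on the log2 scale) although their sums overlapped, at 1370 to 1690 CPM in STA and 1340 and 1630 CPM in healthy. Of 6 tested osteoblast markers 1 was higher and 3 lower, with sums of 60.3 to 106 CPM in STA and 122 and 307 CPM in healthy, and 3 of 4 markers of Pi16+ universal fibroblasts were lower. No lining marker of 4 was called, with Prg4 at 5832 to 8450 CPM in STA and at 23660 and 3386 CPM in healthy hashtags. Of the endothelial, mural, muscle, adipocyte, Schwann, leukocyte, erythroid and keratinocyte markers none was called higher, and the T cell marker Cd3e had no UMI. Of 5 general fibroblast markers 1 was higher and 3 were lower (Dcn, change -1.12), with sums of 10200 to 11800 CPM in STA and 18600 and 19800 CPM in healthy. The part of class make-up and of these markers in the collagen results was not tested beyond the within-class values that follow. The mild STA hashtag had 0.17 CPM of the Y-linked Ddx3y and the other 5 hashtags 28.5 to 59.0 CPM, so the sex of its animals and its severity cannot be told apart. The female transcript Xist had 815 CPM in mild STA and 243 to 531 CPM in the other 5, which thus held both transcripts. Mild STA is also 1 of the 3 STA hashtags set against healthy, and the part of sex in that contrast was not tested. Values of 4 arthritic hashtags are listed as STA + Il23mc, STA 1, mild and severe STA, and values of 2 healthy hashtags as healthy 1 and healthy 2. The sums alone do not separate the number of cells of a class from the RNA per cell. By cell number Mmp3+ cells were 66.5% in STA + Il23mc, 69.5% in STA 1, 49.1% in mild and 40.6% in severe STA. They were 2.45% in healthy 1 and 10.8% in healthy 2. Their median UMIs per cell were 20278, 19504, 27171 and 24743 in these arthritic hashtags against 15665.5 and 13323 in healthy ones. Both were thus higher in arthritis, and the part of each was not tested. Lining cells numbered 49 in healthy 1 and 6 in healthy 2, with medians of 13412 and 14162.5 UMIs.

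Collagen transcripts took a larger share of the UMIs of the summed fibroblast classes in arthritis. They were 4.52% of UMIs in STA + Il23mc, 4.89% in STA 1, 5.22% in mild STA and 5.74% in severe STA, against 1.78% in healthy 1 and 2.76% in healthy 2. In these sums every arthritic hashtag lay above both healthy ones. Within Pi16+ cells this did not hold: mild STA had 2.14%, between healthy 1 (1.94%) and healthy 2 (2.92%), and the other arthritic hashtags 3.50 to 5.16%. Within Il6+ cells the share was 3.13 to 4.58% in arthritic hashtags, lowest in mild STA, against 1.89% and 2.65% in healthy ones. Within Mmp3+ cells it was 4.71 to 6.87% against 3.47% (10 cells) and 3.10% (29 cells). Col1a1, Col1a2 and Col3a1 alone made up 85.6% of collagen UMIs in STA + Il23mc, 82.8 to 83.6% in STA and 74.7 and 77.4% in healthy hashtags. Fibrillar chains together held 91.0% in STA + Il23mc, 89.5 to 89.8% in STA and 81.3 and 83.8% in healthy, which left less for the others. Beaded filament chains held 4.68% in STA + Il23mc, 5.56 to 6.04% in STA and 10.6 and 9.31% in healthy hashtags. Network chains held 1.82% in STA + Il23mc, 1.20 to 1.75% in STA and 3.59 and 3.31% in healthy hashtags.

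Of the 44 members 43 had a UMI in these cells and 37 passed the filter on low counts. Between STA and healthy, 17 were called higher, 4 lower and 16 were not called (edgeR quasi-likelihood test with an experiment term, Benjamini-Hochberg adjusted p of 0.05 over 13249 genes). Among all genes tested 9.83% were called higher and 8.76% lower. The median change was 0.79 on the log2 scale over the 37 members and 0.02 over all genes. In 20 members, 19 of them tested, every STA hashtag lay above both healthy ones, and in 6 every STA hashtag lay below; over all genes the shares were 22.2% and 19.9%. The counts hung on the Mmp3+ class: with that class left out of every hashtag, 3 members (Col5a3, Col6a3 and Col22a1) were higher and none lower by edgeR, against 91 and 95 of all genes (0.76% and 0.793%). Of the 17 called higher, 16 were tested without it, 15 had a positive change and 2 (Col6a3 and Col5a3) were still called. Of the same 17, 13 also kept their call when each STA or healthy hashtag was left out in turn.

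**Figure D1:**
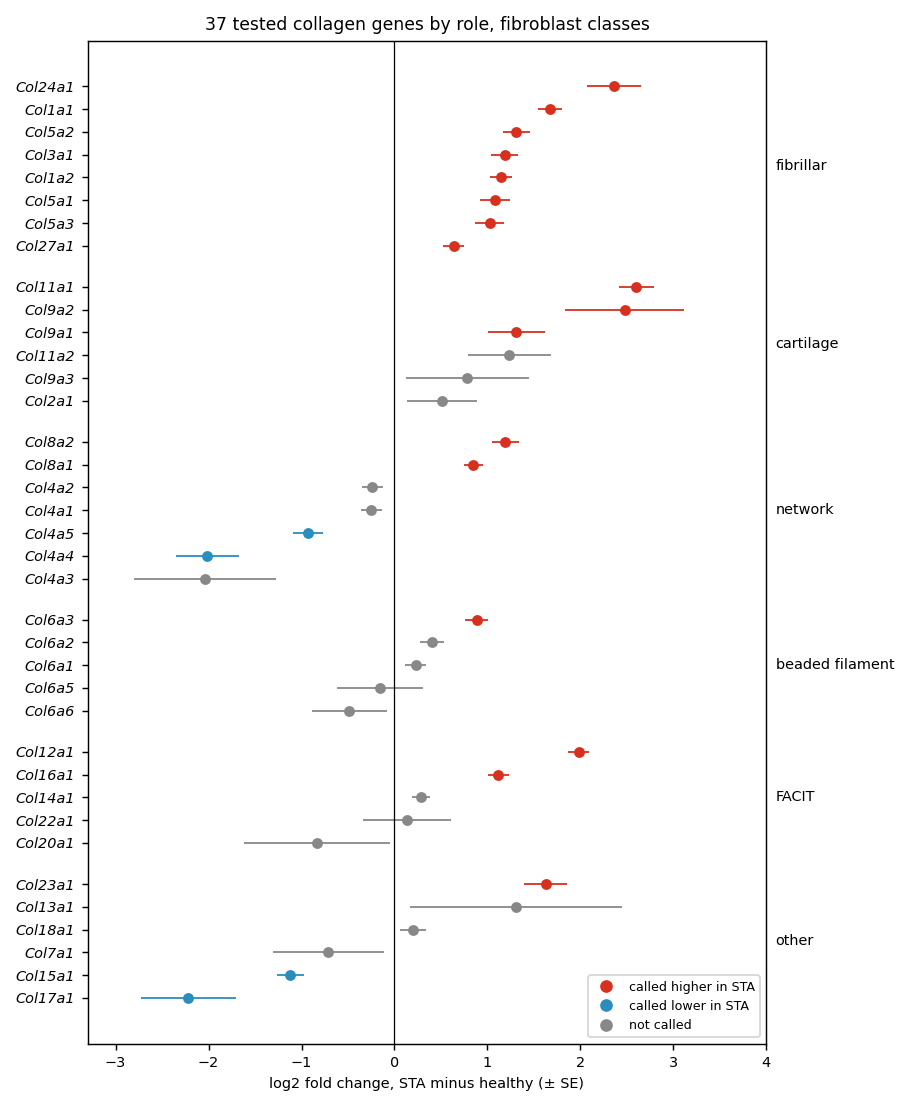
Log2 fold change of STA minus healthy with its standard error (x axis) for the 37 tested collagen genes, grouped by role; red points were called higher, blue lower and grey not called. All 8 fibrillar chains lie to the right of 0, and the 4 called lower are Col4a4, Col4a5, Col15a1 and Col17a1.

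All 8 fibrillar chains were called higher in STA, with a median change of 1.17. Col1a1, the alpha1 chain of type I collagen (mm10 chromosome 11, 94936224 to 94953042, plus strand), had 11440 CPM in STA + Il23mc, 12750 in STA 1, 17520 in mild STA and 19150 in severe STA, against 3245 in healthy 1 and 6825 in healthy 2. Its change of 1.67 (SE 0.13, adjusted p = 0.00122, edgeR) was a 3.19-fold difference, and the groups did not overlap. Col1a2, the alpha2 chain that pairs with it, had 11780, 13720, 13450 and 15020 CPM in STA + Il23mc, STA 1, mild and severe STA, against 5200 and 7454 CPM in healthy 1 and healthy 2, a change of 1.15 (SE 0.12, adjusted p = 0.00273, edgeR). Col3a1, the chain of the homotrimeric type III collagen (chromosome 1, 45311538 to 45349706, plus strand), had 15450, 14030, 12580 and 13800 CPM in these arthritic hashtags against 4836 and 7049 CPM in healthy ones, a change of 1.19 (SE 0.14, adjusted p = 0.00376, edgeR). These 3 chains were each 2.21-fold to 3.19-fold higher in STA than in healthy fibroblasts in the sum of the classes. Without the Mmp3+ class their changes were smaller: 0.75 (SE 0.30) for Col1a1, 0.53 (SE 0.26) for Col1a2 and 0.84 (SE 0.31) for Col3a1. None of these was called (adjusted p = 0.281, 0.372 and 0.246, edgeR).

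The balance among these chains differed between the wells as well as between the conditions. Col1a1 UMIs per Col1a2 UMI were 0.971 in STA + Il23mc and 0.929 in STA 1 against 0.624 in healthy 1, all of experiment 1, and 1.30 in mild and 1.27 in severe STA against 0.916 in healthy 2, all of experiment 2. Within each well the arthritic hashtags had the higher ratio. Col3a1 UMIs per Col1a1 UMI were 1.35 in STA + Il23mc and 1.10 in STA 1 against 1.49 in healthy 1, and 0.718 in mild and 0.721 in severe STA against 1.03 in healthy 2, so within each well that ratio was lower in arthritis. These ratios are of the summed classes and were not tested. Within Il6+ cells Col3a1 per Col1a1 was higher in arthritis. It was 1.74 in STA + Il23mc and 1.70 in STA 1 against 1.57 in healthy 1. In experiment 2 it was 1.16 in mild and 1.19 in severe STA against 0.934 in healthy 2. Within Mmp3+ cells of experiment 2 it was lower, at 0.671 and 0.600 against 0.808. In those cells Col1a1 per Col1a2 was 1.38 in mild and 1.40 in severe STA against 1.39 in healthy 2.

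Type V chains, which regulate the diameter of type I fibrils, were higher as well. Col5a2, on chromosome 1 beside Col3a1, had 1569 CPM in STA + Il23mc, 1967 in STA 1, 1787 in mild and 1771 in severe STA, against 632.1 in healthy 1 and 862 in healthy 2 (change 1.31, SE 0.14, adjusted p = 0.00285, edgeR). Col5a1 had 637, 898.3, 990.8 and 1148 CPM in those arthritic hashtags against 328.3 and 621.6 CPM in healthy ones (change 1.08, SE 0.16). Col5a3 had 167.2, 411.1, 352 and 398.5 CPM in these arthritic hashtags against 159.8 and 224 CPM in healthy ones (change 1.02, SE 0.16). For Col5a3 the STA + Il23mc hashtag lay between the 2 healthy ones, while all 3 STA hashtags lay above them. The minor fibrillar chain Col24a1 had 10.31, 10.12, 7.136 and 6.806 CPM in these arthritic hashtags against 2.045 and 1.289 CPM in healthy ones, a change of 2.36 (SE 0.29) with 7 and 4 UMIs in the healthy hashtags. Col27a1, a cartilage-associated fibrillar chain, had 65.46, 88.41, 91.06 and 93.5 CPM in these arthritic hashtags against 52.87 and 64.13 CPM in healthy ones (change 0.64, SE 0.11), and it lost its call without STA 1 (adjusted p = 0.0613, edgeR). At equal class weights (the mean CPM of the 5 classes, however few their cells) its change was -0.21, and over all annotated cells -0.01.

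**Figure D2:**
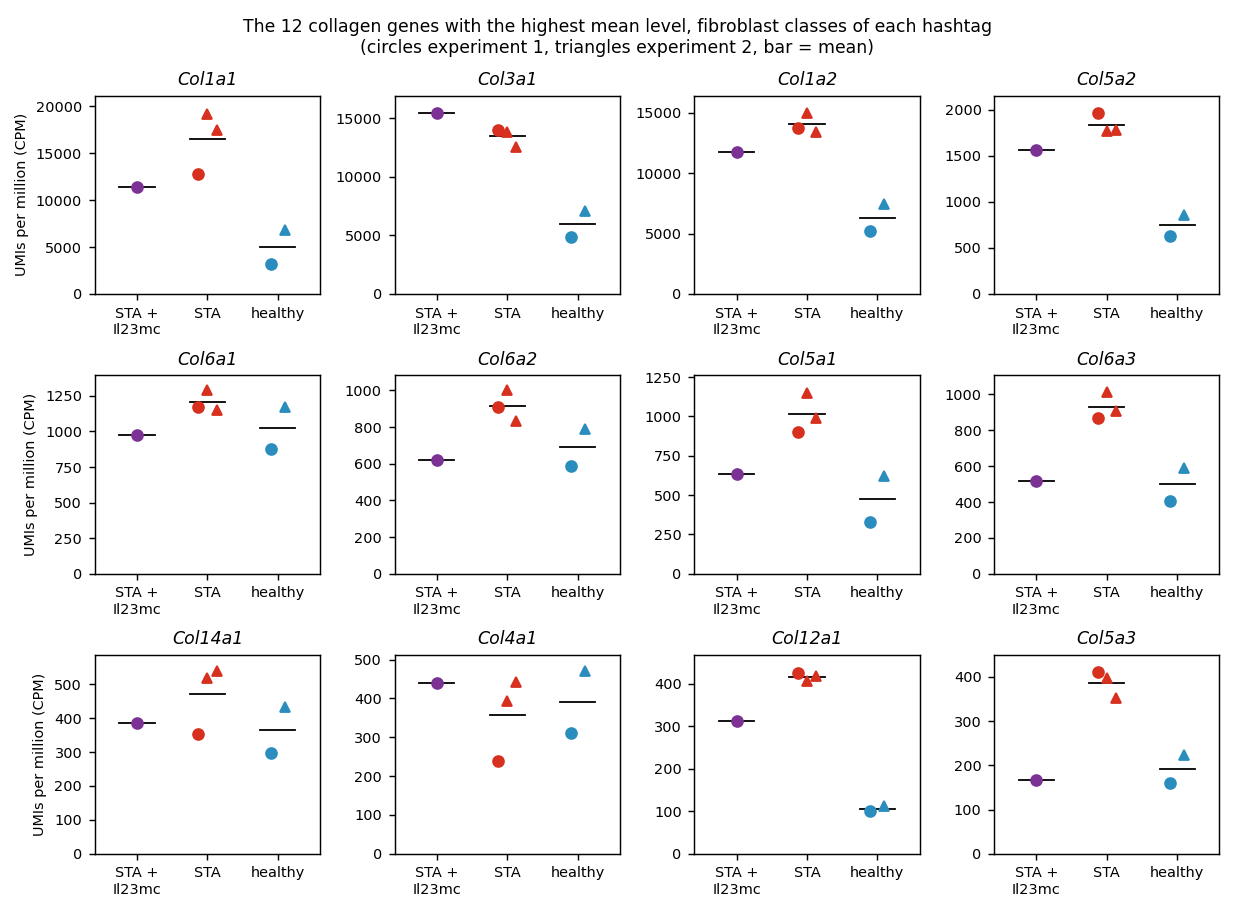
Level in CPM (y axis, from 0) of the 12 members with the highest mean over the 6 hashtags, in STA + Il23mc, STA and healthy fibroblasts; each point is a hashtag, circles experiment 1, triangles experiment 2, and the bar is the mean. Type I, III and V chains, Col6a2, Col6a3 and Col12a1 have every STA point above both healthy points, while Col6a1, Col14a1 and Col4a1 overlap.

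The cartilage chains were led by Col11a1, the alpha1 chain of type XI collagen, which is also made outside cartilage. It had 205.2 CPM in STA + Il23mc, 316.9 in STA 1, 234.3 in mild and 330.9 in severe STA, against 47.32 in healthy 1 and 51.24 in healthy 2, a 6.08-fold difference (change 2.60, SE 0.19, adjusted p = 0.000744, edgeR). There were 0.322, 0.353, 0.236 and 0.288 Col11a1 UMIs per Col5a1 UMI in these arthritic hashtags, against 0.144 and 0.0824 in healthy ones. The change of Col11a1 was 1.31, 0.58 and 0.22 within Mmp3+, Il6+ and Pi16+ cells, and 0.69 without the Mmp3+ class. It was called in none of these fits. The type IX chains Col9a1 and Col9a2, which coat the type II fibril, were called higher at low counts. Col9a1 had 6.973, 5.243, 6.286 and 7.523 CPM in these arthritic hashtags against 1.753 and 3.223 CPM in healthy ones (change 1.31, SE 0.31, adjusted p = 0.0283, edgeR), and Col9a2 had 2.403, 3.857, 3.058 and 6.329 CPM in these arthritic hashtags against 0.2921 and 1.289 CPM in healthy ones (change 2.48, SE 0.64, adjusted p = 0.0380, edgeR), from 1 and 4 healthy UMIs. Col9a1 lost its call in each of the 5 fits that leave out a hashtag (adjusted p = 0.0508 to 0.163, edgeR) and Col9a2 in 4 of them (adjusted p = 0.0262 to 0.212 over the 5, edgeR). At equal class weights the change of Col9a1 was -0.74. Col2a1, the chain of type II collagen that defines cartilage, was not called, at 8.966 CPM in STA + Il23mc, 15.61 to 27.7 CPM in STA and 4.966 and 24.17 CPM in healthy hashtags. Col9a3 had 6.739, 4.46, 3.568 and 10.15 CPM in STA + Il23mc, STA 1, mild and severe STA against 0.5842 and 6.767 CPM in healthy 1 and healthy 2, and was not called (change 0.79, SE 0.66). Col11a2, the partner of Col11a1, was not called (change 1.24, SE 0.44) at 1.934, 4.098, 4.587 and 8.836 CPM in these arthritic hashtags against 2.045 and 2.578 CPM in healthy ones. The chondrocyte markers Acan, Sox9, Matn3 and Hapln1 and all 3 tendon markers were called higher in the same sums. Col10a1, the marker of hypertrophic cartilage, was not tested for change, with 7 UMIs in all.

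Among the network chains the type VIII chains were higher and part of the type IV chains lower. Col8a1 had 64.99 CPM in STA + Il23mc, 142.2 in STA 1, 160 in mild and 170 in severe STA, against 79.16 in healthy 1 and 93.13 in healthy 2 (change 0.85, SE 0.10, adjusted p = 0.00374, edgeR). Its partner Col8a2 had 27.31, 43.09, 52.67 and 64.72 CPM in these arthritic hashtags against 19.28 and 25.78 CPM in healthy ones (change 1.19, SE 0.15). The STA hashtags exceeded both healthy ones for each chain, and the STA + Il23mc hashtag was below both for Col8a1. Without the Mmp3+ class Col8a2 had a change of -0.07 (adjusted p = 0.905, edgeR), and at equal class weights of -0.06.

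Col4a1 and Col4a2, the chains of the ubiquitous type IV trimer, were not called and kept a steady ratio. Col4a1 had 438.7 CPM in STA + Il23mc, 238.1 in STA 1, 442.4 in mild and 392.5 in severe STA, against 310.5 in healthy 1 and 470.8 in healthy 2 (change -0.25, SE 0.12, adjusted p = 0.180, edgeR). Col4a2 had 286.3, 152.7, 242.6 and 255.4 CPM in these arthritic hashtags against 202.1 and 274.2 CPM in healthy ones (change -0.24, SE 0.11). The 2 chains were low in the same hashtag, STA 1, and their ratio was 1.53 in STA + Il23mc, 1.54 to 1.82 in STA and 1.54 and 1.72 in healthy hashtags. The minor type IV chains were lower in STA: Col4a5 had 5.274, 9.763, 13.25 and 15.76 CPM in these arthritic hashtags against 17.23 and 29.97 CPM in healthy ones (change -0.93, SE 0.16, adjusted p = 0.0106, edgeR), and Col4a4 had 0.879, 1.446, 3.058 and 5.254 CPM in these arthritic hashtags against 7.595 and 14.82 CPM in healthy ones (change -2.01, SE 0.34, adjusted p = 0.00947, edgeR). Col4a4's neighbour Col4a3 had a like change of -2.04 (SE 0.76) from 27 UMIs in all and was not called. Col4a5 lost its call without healthy 2 (adjusted p = 0.0871, edgeR). Without the Mmp3+ class its change was 0.07 (adjusted p = 0.924, edgeR) and at equal class weights 0.23, and within Mmp3+, Il6+ and Pi16+ cells it was 0.15, 0.19 and 0.38, none called. At equal class weights Col4a1 and Col4a2 had changes of 0.37 and 0.17, and without the Mmp3+ class of 0.39 and 0.26. The call of Col4a4 was lost without STA 1 (adjusted p = 0.0580, edgeR). Its change was -0.19, -0.85 and -0.45 within Mmp3+, Il6+ and Pi16+ cells and -0.75 without the Mmp3+ class, none called. At equal class weights it was -0.39. Col4a6 was not tested.

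Of the beaded filament chains Col6a3 was called higher and its partners Col6a1 and Col6a2 were not. Col6a3, the long alpha3 chain, had 515.3 CPM in STA + Il23mc, 869.1 in STA 1, 908.3 in mild and 1012 in severe STA, against 405.5 in healthy 1 and 590.7 in healthy 2 (change 0.89, SE 0.12, adjusted p = 0.00545, edgeR). Col6a1 had 977.6, 1170, 1150 and 1294 CPM in these arthritic hashtags against 879.3 and 1171 CPM in healthy ones (change 0.23, SE 0.12), with overlapping groups. Col6a2 had 620.1, 908.8, 835.4 and 999.7 CPM in these arthritic hashtags against 590.4 and 787.6 CPM in healthy ones (change 0.41, SE 0.13, adjusted p = 0.0735, edgeR). The 3 chains of this trimer thus did not keep 1 ratio: Col6a3 UMIs per Col6a1 UMI were 0.527 in STA + Il23mc, 0.743 to 0.790 in STA and 0.461 and 0.505 in healthy hashtags. Of the alternative alpha chains Col6a5 and Col6a6 were not called and Col6a4 had 6 UMIs. Col6a6 had 1.817, 3.917, 5.267 and 13.13 CPM in STA + Il23mc, STA 1, mild and severe STA against 4.966 and 14.18 CPM in healthy 1 and healthy 2.

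Of the FACIT chains Col12a1 and Col16a1 were higher. Col12a1, found on fibrils of tendon and other tissues under load (chromosome 9, 79598991 to 79718831, minus strand), had 311.4 CPM in STA + Il23mc, 424.2 in STA 1, 418.5 in mild and 405.9 in severe STA, against 100.5 in healthy 1 and 112.1 in healthy 2. Its 3.95-fold difference (change 1.98, SE 0.11, adjusted p = 0.000468, edgeR) came with little spread in either group: 416 ± 9.39 CPM in STA (SD, n = 3) and 106 ± 8.24 CPM in healthy (SD, n = 2). Col16a1 had 111.9, 180.7, 210.2 and 203.1 CPM in these arthritic hashtags against 90.85 and 90.55 CPM in healthy ones (change 1.12, SE 0.11, adjusted p = 0.00241, edgeR). Col14a1, a close relative of Col12a1, was not called at 385.9, 353.2, 540.3 and 519.3 CPM in these arthritic hashtags against 298.2 and 432.5 CPM in healthy ones (change 0.29, SE 0.10, adjusted p = 0.0857, edgeR). Col22a1, known from tissue junctions, was not called, with 22.97, 54.54, 67.45 and 42.27 CPM in these arthritic hashtags against 99.61 and 22.88 CPM in healthy ones, so its 2 healthy hashtags lay at opposite ends. Col20a1 was not called and Col19a1 had no UMI. The symbol Col21a1 is not among the genes counted.

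The remaining members gave 1 higher and 2 lower. Col15a1, a basement membrane multiplexin (chromosome 4, 47208161 to 47313167, plus strand), had 13.89 CPM in STA + Il23mc, 46.53 in STA 1, 75.43 in mild and 99.82 in severe STA, against 110.4 in healthy 1 and 182.1 in healthy 2 (change -1.12, SE 0.14, adjusted p = 0.00420, edgeR). All arthritic hashtags lay below both healthy ones, and the Il23mc hashtag lowest. Without the Mmp3+ class the change of Col15a1 was -0.11 (adjusted p = 0.770, edgeR). Its relative Col18a1, the precursor of endostatin, was not called (change 0.20, SE 0.14). The transmembrane Col17a1 had 1.992, 1.446, 1.699 and 2.388 CPM in these arthritic hashtags against 13.44 and 4.834 CPM in healthy ones (change -2.22, SE 0.51, adjusted p = 0.0267, edgeR) and lost its call without healthy 1, without STA 1 or without mild STA (adjusted p up to 0.239, edgeR). The transmembrane Col23a1 had 14.12, 18.08, 21.41 and 16.48 CPM in these arthritic hashtags against 4.966 and 7.09 CPM in healthy ones (change 1.63, SE 0.23, adjusted p = 0.00591, edgeR), and lost its call without STA 1 (adjusted p = 0.0520, edgeR). The anchoring fibril chain Col7a1 and the transmembrane Col13a1 were not called, and Col25a1, Col26a1 and Col28a1 were not tested.

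The enzymes and chaperones that make collagen were described from a list of 32 genes, all of them tested. Of these 19 were higher in STA, 2 lower and 11 not called, with a median change of 0.63, beside 9.83% higher, 8.76% lower and a median of 0.02 over all genes. P4ha3, a prolyl 4-hydroxylase subunit, changed by 1.91 (SE 0.13), the crosslinking enzyme Lox by 1.92 (SE 0.13), the lysyl hydroxylase Plod2 by 1.69 (SE 0.22) and the prolyl 3-hydroxylase P3h1 by 1.53 (SE 0.14). The collagen chaperone Serpinh1 (HSP47) changed by 1.10 (SE 0.11), with 1294 CPM in STA + Il23mc, 1481 to 1600 CPM in STA and 618.1 and 796 CPM in healthy hashtags. Pcolce2, an enhancer of C-propeptide cleavage, was lower (-2.67, SE 0.39), while Pcolce was not called at 0.19 (SE 0.11). Of 8 tested collagen receptors Mrc2, the endocytic receptor for collagen fragments, was higher (0.74, SE 0.11), Ddr2 (-0.89, SE 0.18) and Itga2 (-1.67, SE 0.29) were lower and 5 were not called. Of 7 tested genes of collagen breakdown 5 were higher by edgeR: the proteases Mmp2 (0.56, SE 0.14), Mmp14 (1.37, SE 0.15), Ctsk (0.60, SE 0.11) and Mmp3 (2.08, SE 0.20), whose name the authors' class carries, and Mmp9, with 10 to 26 UMIs in STA hashtags and none in healthy ones. The collagenase Mmp13 (1.70, SE 0.58) and Fap (0.47, SE 0.13) were not called. None of the members is in these lists, and the lists were chosen with earlier results of these data known.

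The members differed in which annotated class held them. The levels here are over all cells of a class, with no test, because the classes were made from the genes of these same cells. They pool hashtags, and Mmp3+ cells came mostly from arthritic ones, so each order was also read within single hashtags, over classes with at least 20 cells there. Mmp3+ fibroblasts had the highest Col5a1 (936 CPM over all cells) and Col5a2 (1940 CPM), and did so in each of the 5 hashtags compared. Their Col3a1 (14900 CPM over all cells) was the highest in 3 of 5 hashtags: in STA 1 it stood at 14100 CPM in Mmp3+, 15900 CPM in Il6+ and 18900 CPM in Pi16+ cells. Cd200+ fibroblasts had the highest Col8a1 (649 CPM, 3.80 times the next class) and Col8a2 (197 CPM), in both hashtags compared. At low counts Pi16+ cells led for Col6a6 (19.0 CPM, 299 UMIs over all classes) and Il6+ cells for Col20a1 (1.64 CPM, 38 UMIs) in 6 of 6 hashtags. The order was less stable for some others. Il6+ cells led for Col4a1 (648 CPM) in 3 of 6 hashtags and for Col4a2 (358 CPM) in 4 of 6. Pi16+ cells led for Col15a1 (181 CPM) and Col4a5 (34.1 CPM) in 3 of 6 each. Col14a1 stood at 548 CPM in Il6+ and 526 CPM in Pi16+ cells over all hashtags, yet was higher in Pi16+ than in Il6+ cells in 5 of 6 hashtags.

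Col22a1 was highest in the Lining class, at 589 CPM and 23.9 times the next class, and 65.0% of its 2520 UMIs were in Lining cells. Of the rest 807 UMIs were in Mmp3+ cells, at 22.2 CPM. Lining cells had 761 CPM in STA 1 and 485 CPM in healthy 1, the hashtags with at least 20 Lining cells. This class had little type I collagen. In STA 1 Lining cells Col1a1 stood at 2414 CPM and Col1a2 at 1444 CPM, against 679 CPM and 840.2 CPM in healthy 1. Collagens were 1.62% of Lining UMIs in STA 1 and 0.539% in healthy 1. Between these hashtags the log2 ratio of CPM in Lining cells was 2.28 for Col3a1 (95% counting interval 2.18 to 2.38), 2.91 for Col5a2 (2.67 to 3.16), 2.39 for Col6a3 (2.08 to 2.71), 1.83 for Col1a1 (1.69 to 1.98) and -0.26 for Col4a1 (-0.48 to -0.03). This is 1 hashtag against 1, with no test, and the intervals cover counting error only.

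**Figure D3:**
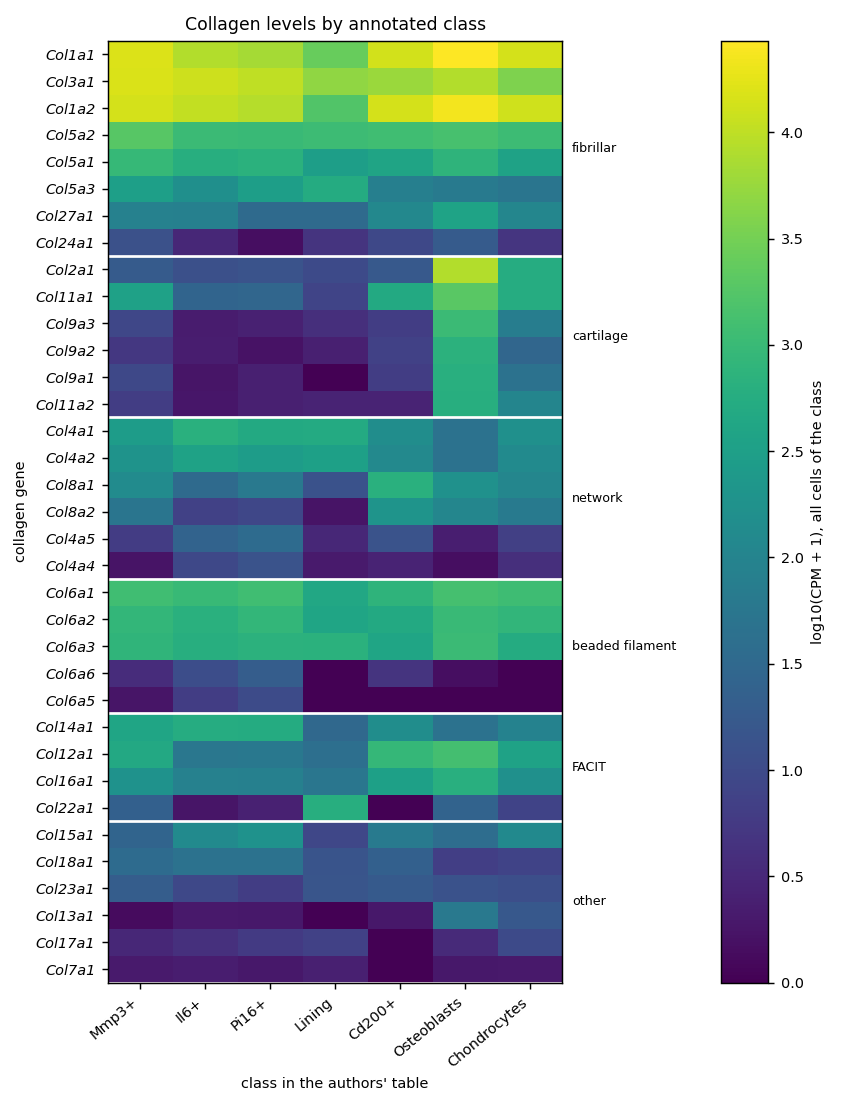
Level of each collagen gene with 50 or more UMIs over all cells (rows, by role) in the 7 classes of the authors' table (columns), as log10 of CPM plus 1. The cartilage chains are highest in the class annotated Osteoblasts, Col22a1 in Lining cells, and Col8a1 and Col8a2 in Cd200+ cells.

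The labels of the 2 skeletal classes were checked against marker genes. Of 7 chondrocyte markers 6 were higher in the class annotated Osteoblasts than in the class annotated Chondrocytes (Acan at 1080 and 211 CPM, Matn3 at 499 and 23.3 CPM), as were all 7 osteoblast markers (Ibsp at 7740 and 385 CPM). The class annotated Chondrocytes had more Comp (7660 CPM, against 3200 CPM in the class annotated Osteoblasts) and more of all 3 tendon markers (Tnmd at 830 and 32.5 CPM). Yet each chondrocyte marker was higher in the class annotated Chondrocytes than in any fibroblast class. Hapln1 stood at 76.8 CPM there against 21.5 CPM in Cd200+ cells, and Acan at 211 against 201 CPM in Mmp3+ cells. The markers thus do not settle the label Chondrocytes, and both classes are named by their annotation only. Col2a1 stood at 8450 CPM in the class annotated Osteoblasts and at 558 CPM in the class annotated Chondrocytes, Col9a3 at 1040 and 74.8 CPM, Col9a2 at 710 and 28.2 CPM and Col11a1 at 1980 and 558 CPM. Of the 127 cells annotated Osteoblasts, 11 had 10 or more Col2a1 UMIs and held 99.9% of the class's 18222 Col2a1 UMIs, and in the class annotated Chondrocytes 3 of 96 cells held 97.2% of its 574. The Col2a1 level of both classes is thus set by few cells. The same class had the highest Col1a1 (27000 CPM) and Col1a2 (22200 CPM).

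Summing all annotated cells changed the cartilage chains. Over all 7 classes Col2a1 had 14.8 CPM in STA + Il23mc, 78.8 in STA 1, 346 in mild and 624 in severe STA, against 414 in healthy 1 and 2280 in healthy 2. In that sum 14 members were called higher and 10 lower, while 8.21% and 7.93% of 13328 genes were. Col2a1 (-2.29), Col9a1 (-1.78), Col9a2 (-1.78), Col9a3 (-2.40) and Col11a2 (-1.12) were among the lower. Col9a1 and Col9a2 were thus called higher over the fibroblast classes and lower over all cells. Col11a1, called higher over the fibroblast classes, was not called over all cells (adjusted p = 0.532, edgeR). Cells annotated Osteoblasts with 10 or more Col2a1 UMIs numbered 1 in STA + Il23mc, 1 in STA 1, 1 in mild and 2 in severe STA, against 1 in healthy 1 and 5 in healthy 2. The fibroblast classes held far less Col2a1: 631 UMIs in 1658 Mmp3+ cells, of which 8 had 10 or more.

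The same contrast was fitted within single classes. In Mmp3+ cells 7 of 32 tested members were higher in STA and 1 lower (background 1.22% and 1.61%). Only healthy 2 had 20 Mmp3+ cells among the healthy hashtags (29 cells), so this estimate is of mild and severe STA against 1 healthy hashtag, with 1 residual degree of freedom. The spread comes from mild against severe STA, and the lone healthy hashtag is assumed to vary like them. With no experiment term none of the members was higher and 1 was lower by edgeR. Col1a1 had 12200 CPM in STA + Il23mc, 13900 in STA 1, 23100 in mild and 25100 in severe STA, against 9200 in healthy 2 (change 1.56, SE 0.20, adjusted p = 0.00927, edgeR). Col1a2 (1.56, SE 0.20), Col3a1 (1.21, SE 0.19), Col16a1 (1.17, SE 0.20), Col14a1 (1.15, SE 0.21), Col5a2 (0.97, SE 0.18) and Col5a1 (0.97, SE 0.19) were higher too. Col15a1 was lower (-1.93, SE 0.20, adjusted p = 0.00497, edgeR), with 6.69 CPM in STA + Il23mc, 29.5, 38.6 and 45.0 CPM in STA 1, mild and severe STA and 179 CPM in healthy 2. Col12a1, which differed 3.95-fold in the sum, had 361, 504, 544 and 603 CPM in Mmp3+ cells of the arthritic hashtags against 474 CPM in healthy 2 and was not called (0.44, SE 0.18, adjusted p = 0.236, edgeR). In Il6+ and Pi16+ cells Col12a1 was lower than this in every hashtag, at 14.9 to 79.9 CPM and 26.1 to 96.8 CPM.

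In Il6+ cells, with all 6 hashtags, 3 of 27 tested members were higher and none lower by edgeR (background 1.21% and 0.997%). These were Col3a1 (1.01, SE 0.19, adjusted p = 0.0102, edgeR), Col6a3 (0.69, SE 0.17) and Col4a1 (0.79, SE 0.18). Col4a1 had 772 CPM in STA + Il23mc, 646 in STA 1, 833 in mild and 653 in severe STA, against 300 in healthy 1 and 446 in healthy 2. In this class its groups did not overlap, while in the sum they did. The count was 1 without healthy 1 or without STA 1, and 9 without healthy 2 or without mild STA. In Pi16+ cells 1 of 27 was higher and none lower by edgeR (background 0.44% and 0.451%): Col27a1, by 1.48 (SE 0.28, adjusted p = 0.0234, edgeR), with 24.0 CPM in STA + Il23mc, 55.7, 40 and 52.9 CPM in STA 1, mild and severe STA and 26.6 and 12 CPM in healthy hashtags. The Pi16+ count was 7 without healthy 2 and 5 without mild STA. Col1a1 had positive changes that were not called in Il6+ cells (0.76, SE 0.20) and in Pi16+ cells (0.80, SE 0.32). At an unadjusted p under 0.05, 2320 genes in Mmp3+, 1379 in Il6+ and 951 in Pi16+ cells passed. Lining and Cd200+ cells could not be fitted, with 2 hashtags of at least 20 cells each. For Cd200+ cells these were healthy 1 and STA + Il23mc, so no STA hashtag was left.

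**Figure D4:**
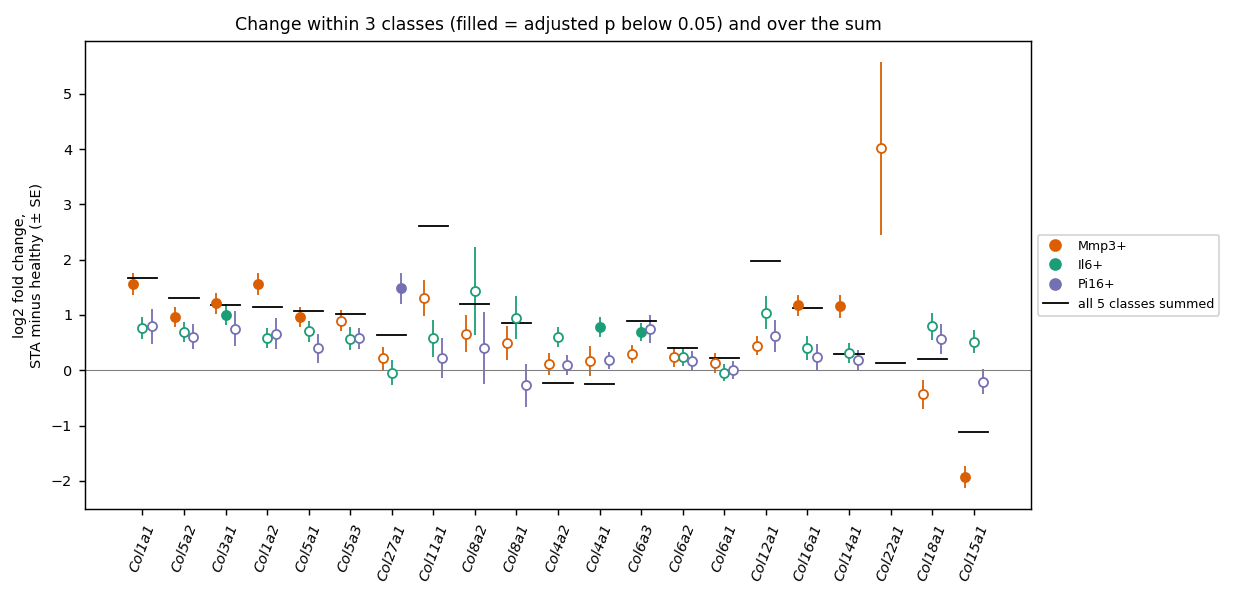
Log2 fold change of STA minus healthy with its standard error (y axis) within Mmp3+, Il6+ and Pi16+ fibroblasts for members with 1000 or more UMIs (x axis); filled points were called, and black lines are the change over the 5 classes summed. Col11a1 and Col12a1 have black lines well above every class point, and the Col15a1 point of Mmp3+ cells lies below 0 with the Il6+ point above it.

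The difference between classes was tested directly, as the STA change in a class minus that in the other fibroblast classes. The other classes are a mix that itself moved with the condition, as the UMI shares above show. In Mmp3+ cells 1 of 34 tested members differed (background 0.432%), in Il6+ cells 9 of 34 (background 4.39%) and in Pi16+ cells 3 of 33 (background 1.81%). The Il6+ change was below that of the other classes for Col1a1 (difference -1.09, SE 0.16, adjusted p = 0.000405, edgeR), Col1a2, Col5a2, Col11a1 and Col27a1. It was above that of the other classes for Col4a1 (difference 1.21, SE 0.19, adjusted p = 0.000629, edgeR), Col4a2, Col4a5 and Col15a1. In Pi16+ cells the change was below that of the other classes for Col5a1 (difference -1.01, SE 0.22) and Col11a1 (difference -2.06, SE 0.33) and above it for Col27a1 (difference 1.47, SE 0.31). For Col15a1 the difference was -1.78 (SE 0.24, adjusted p = 0.0149, edgeR) in Mmp3+ cells, again with healthy 2 as the only healthy hashtag and under the same assumption. It was 2.04 (SE 0.28, adjusted p = 0.000239, edgeR) in Il6+ cells, where it had 49.7 CPM in STA + Il23mc, 186, 244 and 169 CPM in STA 1, mild and severe STA and 122 and 132 CPM in healthy hashtags.

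The Il23 minicircle was compared with STA in experiment 1, 1 hashtag against 1, so there is no replicate check. Of the 30 members with at least 50 UMIs in either hashtag, none was 2-fold or more higher and 6 were 2-fold or more lower in STA + Il23mc with a counting interval that excludes 0; among all 10809 such genes 1.88% were higher and 2.15% lower. The median log2 ratio was -0.47 over the members and -0.24 over all genes. These ratios leave out the TMM scaling factors of the edgeR fit, 0.8455 in STA + Il23mc and 0.9889 in STA 1. Scaling by them would raise every ratio. Which members near 2-fold pass (Col4a1, Col4a2, Col8a1, Col6a6 and Col11a2) thus depends on the scaling. Col15a1 was lowest, at 13.89 CPM in STA + Il23mc and 46.53 CPM in STA 1, a log2 ratio of -1.74 (95% counting interval -1.96 to -1.53). The others were Col5a3 (-1.30, interval -1.36 to -1.24), Col22a1 (-1.25, -1.42 to -1.08), Col8a1 (-1.13, -1.23 to -1.03), Col6a6 (-1.11, -1.78 to -0.47) and Col11a2 (-1.08, -1.73 to -0.46), with Col11a2 at 1.934 CPM in STA + Il23mc and 4.098 CPM in STA 1. At equal class weights 4 of these 6 were under 2-fold: Col5a3 (-0.76), Col22a1 (-0.89), Col8a1 (-0.85) and Col11a2 (-0.72). Within Mmp3+ cells the ratio was -2.14 for Col15a1, -1.31 for Col5a3 and -1.11 for Col8a1, but 0.08 (interval -0.17 to 0.34) for Col22a1, whose Lining class gave 1.71% of UMIs in STA + Il23mc and 5.12% in STA 1.

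The main interstitial chains differed little there in the sum, with log2 ratios of 0.14 for Col3a1, -0.16 for Col1a1 and -0.22 for Col1a2. Their counting intervals exclude 0, which covers counting error and not the spread between animals. In Pi16+ cells the ratios were -0.52 for Col3a1 (-0.56 to -0.48), -0.58 for Col1a1 (-0.64 to -0.53) and -0.73 for Col1a2 (-0.78 to -0.69). For the same chains in that order they were 0.18, -0.18 and -0.24 in Mmp3+ cells and -0.07, -0.09 and -0.33 in Il6+ cells. At equal class weights Col3a1 had -0.13. The basement membrane pair went the other way: Col4a1 had a log2 ratio of 0.88 (0.83 to 0.94) and Col4a2 of 0.91 (0.84 to 0.98). Within Mmp3+ cells the ratios were 1.05 (0.98 to 1.12) and 1.02 (0.93 to 1.10). They were smaller in Il6+ cells, at 0.26 (0.14 to 0.37) and 0.53 (0.37 to 0.70), and in Pi16+ cells, at 0.40 (0.16 to 0.64) and 0.36 (0.04 to 0.67). At equal class weights they were 0.48 and 0.58. In Mmp3+ cells Col4a1 had 374 CPM in STA + Il23mc and 181 CPM in STA 1, and Col4a2 257 and 127 CPM. STA 1 was the lowest of all 5 hashtags for both chains in that class.

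In experiment 2 severe was set against mild STA, again with 1 hashtag each. Of 30 members 3 were 2-fold or more higher in severe STA and none 2-fold or more lower, while 0.922% and 0.901% of 9546 genes were. Col9a3 had 10.15 CPM in severe and 3.568 CPM in mild STA (log2 ratio 1.51, 95% counting interval 0.81 to 2.27), Col6a6 13.13 and 5.267 CPM (1.32, 0.73 to 1.94) and Col9a2 6.329 and 3.058 CPM (1.05, 0.25 to 1.91). All 3 are at low counts, with 85, 110 and 53 UMIs in severe STA. Over all annotated cells the ratio was 0.77 for Col9a3 and 0.67 for Col9a2, under 2-fold, and at equal class weights 0.54 for Col9a2. Col11a2, at 8.836 CPM in severe and 4.587 CPM in mild STA, was just under the size rule (0.95, 0.29 to 1.64). Col1a1 (0.13), Col1a2 (0.16), Col3a1 (0.13), Col12a1 (-0.04) and Col5a2 (-0.01) were close to equal in the sum but not within each class. In Pi16+ cells the ratio of severe to mild STA was 1.24 for Col1a1 (1.18 to 1.30), 1.15 for Col1a2 (1.10 to 1.20), 1.16 for Col3a1 (1.11 to 1.22) and 1.35 for Col12a1 (0.58 to 2.20). In Il6+ cells it was 0.63 for Col1a1 (0.59 to 0.68) and 0.67 for Col3a1 (0.63 to 0.71), and in Mmp3+ cells 0.12 for Col1a1 and -0.04 for Col3a1. Col8a1 had a ratio of 0.09 in the sum and -1.48 at equal class weights. In that weighting the 10 Cd200+ cells of mild STA count as much as its 139 Mmp3+ cells. The median over the members was 0.17 against 0.02 over all genes.

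**Figure D5:**
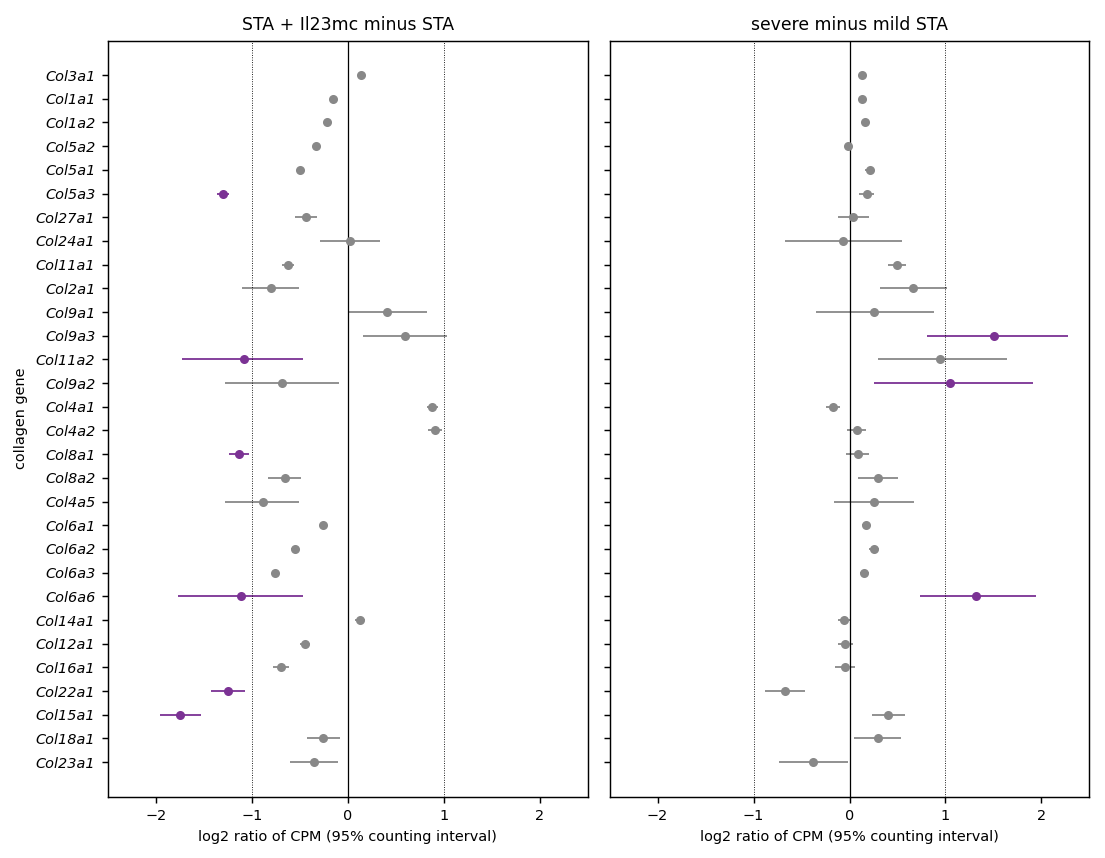
Log2 ratio of CPM with its 95% counting interval (x axis) for the 30 members with at least 50 UMIs in either hashtag; STA + Il23mc over STA 1 on the left, severe over mild STA on the right, dotted lines at 2-fold, and purple points past the size rule. On the left 6 members, Col15a1 the lowest, pass on the lower side and Col4a1 and Col4a2 lie just inside the upper line; on the right Col9a3, Col6a6 and Col9a2 pass.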

How the data were processed

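Single-cell RNA libraries of 2 wells of sorted synovial fibroblasts were analysed, and the ILC wells of the series were not used here. The deposited matrices hold raw UMI counts per gene and barcode on mm10, made with Cell Ranger, whose version is 6.1.2 in the deposited file headers while the submitters' processing notes name 6.0.6. The wells hold 6446 and 4282 barcodes, and 4 are shared between them, none among the kept cells. The authors' deposited table gives the hashtag, condition and class of 2431 and 1120 kept cells, of which 2431 and 1117 matched a barcode; filters, doublet removal and class rules are not given in the sources used here, and no doublet call was added. Cell totals were equal to the table's UMI count in 201 and 118 cells, and differed by up to 368 and 179 UMIs in the rest.

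UMIs of the 5 fibroblast classes were summed per hashtag, 3103104 to 17064647 UMIs and 268 to 953 cells each. Differences between STA and healthy were tested by quasi-likelihood F statistics in edgeR 4.0.16 (R 4.3.3, limma 3.58.1; TMM factors, filterByExpr, terms for experiment, STA and Il23mc; SE from the change and its F statistic), with p-values adjusted by Benjamini-Hochberg over all genes at 0.05. Within classes, hashtags with at least 20 cells were used, and the difference between classes was fitted with hashtag as a block. Comparisons of 1 hashtag with 1 give the log2 ratio of CPM with an exact conditional binomial 95% interval, and the size rule asks for 2-fold, an interval that excludes 0 and at least 50 UMIs in either hashtag. Values per hashtag are printed for the 12 highest members, the highest of each role, every member called, and members past the size rule. The members and lists were chosen with earlier results of these data known. Alternatives were DESeq2 1.42.0, other scaling, filters, cells and terms, and leaving out each hashtag. Equal class weights take the mean CPM of the 5 fibroblast classes of a hashtag, with no minimum of cells. Some of these classes were small, with 10 Mmp3+ cells in healthy 1, 6 Lining cells in healthy 2 and 10 Cd200+ cells in mild STA. The test was also run on simulated counts, with levels from the mean CPM over the hashtags and spread from the main fit. No experiment effect and no shift in class make-up were simulated. There 200 of 12880 genes, drawn from those above a minimum level, were changed. The test called 77% of the 2-fold and 98% of the 4-fold changes, and it made 24 false calls beside the 200 changed genes. In the data 2464 genes were called, so this setting is simpler than the data. Sums, intervals and plots came from Python 3.11.15 with pandas 2.3.3, scipy 1.17.1, matplotlib 3.10.9 and numpy 2.4.6.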

Additional observations from a re-analysis of the deposited data

Results flagged for a closer look

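The STA change of these members differed between a fibroblast class and the other fibroblast classes by the test of the difference itself (log2, class minus the others, adjusted p under the threshold in edgeR). In Mmp3+ cells Col15a1 differed by -1.78, in a fit with 1 healthy hashtag (29 Mmp3+ cells of healthy 2) and 1 residual degree of freedom. In Il6+ cells the difference was 2.04 for Col15a1, 1.34 for Col4a5, 1.21 for Col4a1, 0.97 for Col4a2, -0.70 for Col5a2, -0.73 for Col1a2, -1.09 for Col1a1, -1.11 for Col27a1 and -2.01 for Col11a1. In Pi16+ cells it was 1.47 for Col27a1, -1.01 for Col5a1 and -2.06 for Col11a1. For the Il6+ and Pi16+ values the other classes were led by Mmp3+ cells in STA hashtags (59.0 to 80.2% of UMIs) but not in healthy ones (5.25 and 14.4%), and the part of that shift in these differences was not tested. The same gene in 2 classes shares its hashtags, so these are not independent results. The groups hold 1 to 3 hashtags, too few for a check of single hashtags that stand apart.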

How the results depend on the processing

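Main counts were 17 collagen genes higher and 4 lower in STA, and 1303 and 1161 genes in all. With DESeq2, other scaling, the filter dropped, or the Il23mc hashtag or Lining class left out (the last chosen after seeing the data), 15 to 21 members were higher and 4 lower; all genes numbered 868 higher with DESeq2 and 2066 higher without the filter. With no experiment term 12 were higher and 0 lower by edgeR (345 and 213 of all genes), in experiment 2 alone 13 and 2 (448 and 397), and over all cells 14 and 10. Without the Mmp3+ class, also chosen after seeing the data, they were 3 and 0 (91 and 95). Leaving out a hashtag gave 13 to 16 higher and 2 to 4 lower members, and 473 to 1100 higher and 377 to 1072 lower genes; a lone healthy hashtag is then assumed to vary like the others. The lowest of these were without STA 1. The cause was not tested.

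Within classes, library size alone gave 6 higher members in Il6+ cells, and no experiment term gave 0 in Mmp3+, 0 in Il6+ and 0 in Pi16+ cells. Leaving out a hashtag gave 1 to 9 higher in Il6+ cells, and 1 to 7 higher and 0 to 1 lower in Pi16+ cells. For the Il23mc comparison equal class weights gave 2 higher and 3 lower members, and for severity 1 lower, while all cells gave 1 higher for severity.

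Of the called members, directions turned over all cells for Col27a1 (-0.012), Col9a1 (-1.78) and Col9a2 (-1.78), without the Mmp3+ class for Col4a5 (0.068) and Col8a2 (-0.068), and at equal class weights for Col27a1 (-0.21), Col4a5 (0.23), Col8a2 (-0.064) and Col9a1 (-0.74). Of the members not called, 5 turned over all cells (Col2a1, Col6a5, Col9a3, Col11a2 and Col13a1), 6 without the Mmp3+ class (Col4a1 at 0.39, Col6a1 at -0.11, and Col4a2, Col6a5, Col6a6 and Col11a2) and 5 at equal class weights (Col4a1, Col4a2, Col6a1, Col6a5 and Col6a6). At equal weights 14 of the 17 higher and 3 of the 4 lower members kept their direction.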
